A study of Mus musculus with 22 samples.

Results

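A set of 10 genes that mark endocrine progenitors of the pancreas or beta cells that have lost their mature identity were followed in mouse islets: Aldh1a3, Neurog3, Serpina7, Sox9, Gc, Cck, Gast, Mycl, Fev and Hes1. They were taken by gene symbol from a table of 57010 genes. Islets of 22 male mice aged 5.5 weeks were compared, each library holding the islets of 1 mouse, and the C57 background was represented by 5 wild-type (WT) and 6 heterozygous MafA S64F (Het) animals and the Mixed background by 5 WT and 6 Het animals. The labels give no treatment for any of the 4 groups, and they do not give the strains of the Mixed background or how the S64F allele was made. MAFA is a transcription factor of mature beta cells, and S64F changes a serine of its transactivation domain to phenylalanine. Levels are given as TPM, which scales every library to the same total. Of the 10 genes, 8 reached 1 TPM in at least 5 samples and were tested, and Cck and Mycl did not. Aldh1a3 passed that filter through 5 Mixed Het and 2 Mixed WT samples, so its passing was tied to the group in which it was high.

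In the embryonic pancreas, SOX9 keeps duct-like progenitors in an undifferentiated state, and Notch signalling through its effector HES1 represses Neurog3. Where Notch activity falls, the transcription factor NEUROG3 commits a cell to the endocrine lineage, and FEV acts downstream of it in the maturing endocrine precursor. In adult islets under metabolic stress, beta cells can lose mature markers and gain genes such as Aldh1a3, an enzyme of retinoic acid synthesis, and the hormone genes Gast and Cck. Gc, the vitamin D-binding protein, is also a gene of alpha cells, so its level in whole islets need not come from beta cells.

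The libraries were alike in overall content: 14812 to 16133 genes reached 1 TPM, and samples of 1 group correlated between 0.950 and 0.990 (Pearson's r of log2 values across genes) against 0.904 to 0.977 between groups. Mafa itself, the targeted gene, had a level of 441 ± 87.6 TPM in C57 WT (SD, n = 5) and 117 ± 23.2 (n = 6) in C57 Het islets, and 598 ± 143 (n = 5) and 152 ± 37.1 (n = 6) in Mixed WT and Mixed Het islets. C57 WT replicate 5 had the lowest median correlation with its own group, 0.959. The numbering of the libraries follows the order of the groups, and an effect of library order cannot be told apart from group.

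Most of these genes were higher in Het than in WT islets, and the differences on the Mixed background were larger for several of them. On the C57 background 6 of the 8 tested genes passed the limma threshold of an adjusted p of 0.05 (Benjamini-Hochberg over all 16756 genes): Neurog3, Serpina7, Sox9, Gc and Fev were higher in Het and Hes1 was lower. Of all genes tested, 38.0% were called in that comparison, 26.4% higher and 11.6% lower. On the Mixed background 7 of the 8 were called higher and 0 lower, against 30.7% and 13.5% of all genes (44.1% in all), and Hes1 was the one not called. The median log2 difference over the 8 tested genes was 0.58 on C57 and 1.45 on Mixed, beside 0.08 and 0.10 over all genes tested. The Mixed count and median include Aldh1a3, which passed the filter mainly through the Mixed Het samples in which it was high. The Het and WT groups did not overlap at all for 3 of the 8 on C57, with Sox9 and Gc above and Hes1 below, where 15.9% of all genes lay wholly above and 5.04% wholly below. On Mixed, Neurog3, Serpina7, Sox9, Gc and Fev lay wholly above, 5 of the 8, beside 17.9% of all genes above and 5.76% below. Under median-of-ratios scaling the calls over all genes split evenly, 3293 higher and 3300 lower on C57 in place of 4422 and 1940, and 3663 and 3750 on Mixed in place of 5137 and 2258, while the 6 and 7 calls among these genes kept their number and directions. In whole islets, fewer cells of a type and less RNA per cell cannot be told apart for any gene described here. All fold changes below are differences of log2(TPM + 1) from that limma fit, a scale that understates the change of genes near 1 TPM.

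**Figure D1:**
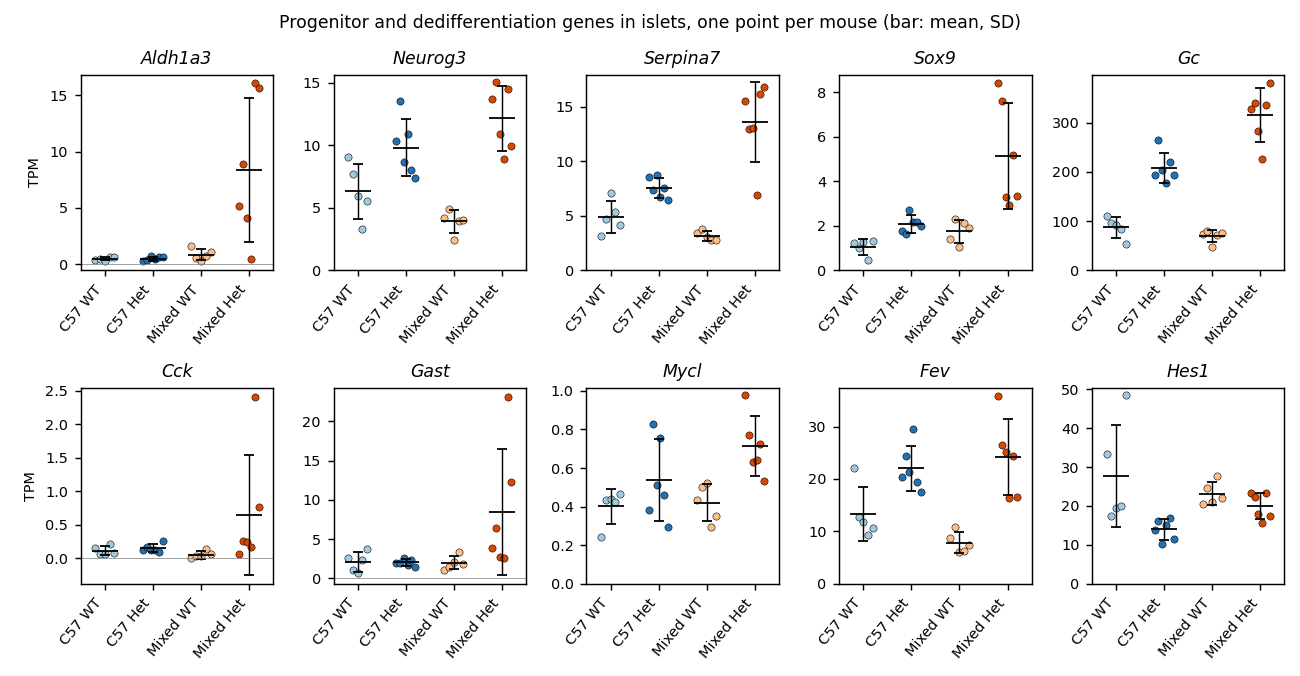
TPM of the 10 genes in each of the 22 islet samples; each point is 1 mouse, the horizontal bar is the group mean and the whisker is the SD, and each panel has its own linear axis. Gc spans 225 to 381 TPM in Mixed Het islets and stays at or below 111 TPM in both WT groups, while Aldh1a3 is spread from 0.41 to 16.0 TPM within Mixed Het.

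The progenitor regulators are described first. Sox9 (ENSMUSG00000000567), which maintains pancreatic progenitors and is kept in adult duct cells, was 1.24, 1.01, 1.26, 0.46 and 1.30 TPM in the 5 C57 WT samples and 1.76, 1.63, 2.73, 2.19, 2.17 and 1.99 TPM in the 6 C57 Het samples. The Mixed WT samples held 1.41, 2.31, 1.06, 2.13 and 1.90 TPM and the Mixed Het samples 8.39, 7.58, 3.27, 2.94, 5.19 and 3.35 TPM. The Het samples lay above all WT samples on both backgrounds, and 2 Mixed Het mice, replicates 1 and 2, stood well above the other Het mice. Sox9 rose by 0.59 (SE 0.20, limma adjusted p = 0.0263) on C57 and by 1.08 (SE 0.20, limma adjusted p = 0.000227) on Mixed, and the difference between those changes, 0.49 (SE 0.29), did not pass (limma adjusted p = 0.291). The C57 call was lost without the filter on low values (adjusted p = 0.0623), without C57 WT replicate 4 (0.0833), which had the lowest Sox9 level, and without C57 Het replicate 3 (0.0545), which had the highest C57 Het level.

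Hes1 (ENSMUSG00000022528), the Notch effector that holds back endocrine commitment, went the other way on the C57 background. It was 33.4, 17.5, 19.4, 20.1 and 48.5 TPM in C57 WT and 13.8, 16.1, 10.2, 15.2, 16.8 and 11.5 TPM in C57 Het. All C57 Het values lay below all C57 WT values, and the 2 highest WT values came from replicates 1 and 5. Hes1 fell by 0.86 (SE 0.20) on C57 (limma adjusted p = 0.00206), and by 0.63 without C57 WT replicate 5 (limma adjusted p = 0.00632). On Mixed it was 20.4, 24.6, 21.1, 27.8 and 22.02 TPM in WT and 23.2, 22.3, 17.8, 15.7, 23.4 and 17.3 TPM in Het, with overlapping groups and a difference of -0.21 (95% confidence interval -0.63 to 0.20; limma adjusted p = 0.400). The interaction for Hes1 was 0.64 (SE 0.28, limma adjusted p = 0.152), so the 2 backgrounds were not shown to differ. Those 2 C57 WT samples also had the highest summed levels of the 7 endothelial markers in their group, 690 TPM in replicate 1 and 965 TPM in replicate 5, in a group that ranged from 424 to 965. Of the 7 endothelial markers, 4 were lower in C57 Het and 1 was lower in Mixed Het. Hes1 per 1000 TPM of summed endothelial markers, a ratio chosen after the values were seen, was 45.0 ± 4.55 (SD, n = 5) in C57 WT and 35.4 ± 6.56 (n = 6) in C57 Het. In Mixed WT and Mixed Het the ratio was 47.6 ± 10.05 (n = 5) and 39.2 ± 6.60 (n = 6). The Het mean of the ratio was thus below the WT mean on both backgrounds, and no test was made of it. The part of endothelial cells in the Hes1 difference was not tested.

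Neurog3 (ENSMUSG00000044312), the factor that starts endocrine differentiation, was 9.10, 7.69, 5.96, 3.31 and 5.55 TPM in C57 WT and 10.3, 13.6, 8.65, 10.9, 8.01 and 7.38 TPM in C57 Het. These groups overlapped, through C57 WT replicates 1 and 2. Neurog3 rose by 0.59 (SE 0.19, limma adjusted p = 0.0193), a call that was lost without C57 WT replicate 4 (0.42, limma adjusted p = 0.0746) and without C57 Het replicate 2 (0.50, limma adjusted p = 0.0530). On Mixed it was 4.18, 4.94, 2.44, 3.95 and 4.03 TPM in WT and 13.7, 15.02, 10.9, 8.89, 14.5 and 9.90 TPM in Het, so every Het mouse lay above every WT mouse. The rise on Mixed was 1.42 (SE 0.19, limma adjusted p = 5.62e-06). The interaction, 0.83 (SE 0.27), had a limma adjusted p of 0.0655, and it passed under median-of-ratios scaling (adjusted p = 0.0489), quantile normalization (0.0453) and sample weights (0.0486). It also passed without C57 WT replicate 4, C57 Het replicate 2 or Mixed Het replicate 4.

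Fev (ENSMUSG00000055197), the ETS factor of endocrine precursors and of serotonin-producing cells, followed Neurog3. It was 22.2, 12.7, 11.7, 9.33 and 10.7 TPM in C57 WT and 20.4, 24.4, 21.3, 29.5, 19.4 and 17.4 TPM in C57 Het, where only C57 WT replicate 1 reached into the Het range. In Mixed islets it was 8.74, 10.9, 6.06, 6.21 and 7.31 TPM in WT and 35.9, 26.4, 25.2, 16.3, 24.3 and 16.6 TPM in Het, with no overlap. Fev rose by 0.73 (SE 0.21, limma adjusted p = 0.00806) on C57 and by 1.49 (SE 0.21, limma adjusted p = 6.71e-06) on Mixed, and the interaction of 0.76 (SE 0.29) did not pass (limma adjusted p = 0.107).

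Mycl (ENSMUSG00000028654), a member of the MYC family of growth regulators, was low everywhere and was not tested under the filter. Its mean was 0.401 ± 0.0909 TPM in C57 WT (n = 5), 0.538 ± 0.211 in C57 Het (n = 6), 0.419 ± 0.0965 in Mixed WT (n = 5) and 0.713 ± 0.155 in Mixed Het (n = 6). The lowest Mixed Het mouse, at 0.53 TPM, lay just above the highest Mixed WT mouse, at 0.52 TPM, while the C57 groups overlapped. In a fit of all genes without the filter, the Mixed difference was 0.27 (SE 0.087, limma adjusted p = 0.0303) and the C57 difference 0.13 (limma adjusted p = 0.404).

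Aldh1a3 (ENSMUSG00000015134), the retinaldehyde dehydrogenase used as a marker of dedifferentiated beta cells, was raised in some but not all Mixed Het mice. It was 0.39, 0.46, 0.32, 0.65 and 0.67 TPM in C57 WT and 0.24, 0.35, 0.69, 0.43, 0.61 and 0.59 TPM in C57 Het, with full overlap. In Mixed WT it was 1.61, 0.56, 0.30, 0.70 and 1.04 TPM. In Mixed Het it was 5.2, 8.92, 4.11, 0.41, 16.0 and 15.7 TPM: 5 of the 6 mice lay above every other mouse of the study and replicate 4 lay among the WT values. The Mixed mean was 0.843 ± 0.504 TPM (SD, n = 5) in WT and 8.39 ± 6.39 (n = 6) in Het, a ratio of means of 9.96. The Mixed difference was 1.98 (SE 0.41, limma adjusted p = 0.000576), larger in size than that of all but 0.698% of genes. The C57 difference was -0.02 (95% confidence interval -0.87 to 0.84; limma adjusted p = 0.981). The interaction was 2.0 (SE 0.58, limma adjusted p = 0.0407). Over the alternatives its adjusted p ran from 0.000531 to 0.0956: it missed the threshold with a pseudocount of 0.1 (0.0565, where the value was 2.75), without the filter (0.0956), with group weights (0.0587) and in 15 of the 22 fits that left out 1 sample. Without Mixed Het replicate 4 the interaction was 2.47.

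Gast and Cck encode gastrin and cholecystokinin, related peptide hormones that signal through shared receptors and are normally low in adult islets. The 250 bases upstream of their RefSeq gene starts (GRCm38.p6) are shown because MAF proteins bind a recognition element with the core TGCTGAC, which is in capitals where it occurs on either strand. The Cck sequence is chr9:121495695-121495944 on the minus strand and the Gast sequence is chr11:100334157-100334406 on the plus strand.
Cck: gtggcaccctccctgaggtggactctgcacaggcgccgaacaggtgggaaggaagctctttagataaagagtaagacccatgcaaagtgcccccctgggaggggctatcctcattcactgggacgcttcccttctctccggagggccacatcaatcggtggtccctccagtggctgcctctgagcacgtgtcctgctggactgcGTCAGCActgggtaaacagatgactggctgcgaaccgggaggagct
Gast: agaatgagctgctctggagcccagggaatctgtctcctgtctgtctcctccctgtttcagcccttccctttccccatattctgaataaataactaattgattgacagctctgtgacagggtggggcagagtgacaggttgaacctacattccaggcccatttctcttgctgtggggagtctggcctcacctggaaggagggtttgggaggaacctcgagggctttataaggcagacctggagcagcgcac
RefSeq promoters were at hand for 7 of the 10 genes (Fev, Mycl, Gc, Cck, Neurog3, Gast and Serpina7), each 250 bases before and 50 after the start. The core TGCTGAC lay in 1 of the 7, Cck, at positions -46 to -40 in reverse orientation, and in 4.67% of all 32851 promoters. The HES1 N box, CACNAG on either strand, lay in 1 of the 7, Mycl, at positions -228 to -223, and in 42.5% of all promoters. These matches describe letters within the windows.

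Gast (ENSMUSG00000017165) was 2.56, 1.09, 0.63, 2.28 and 3.74 TPM in C57 WT and 1.94, 2.0, 2.55, 1.74, 2.39 and 1.49 TPM in C57 Het, a difference of 0.07 (95% confidence interval -0.72 to 0.86; limma adjusted p = 0.900). In Mixed WT it was 1.12, 1.49, 2.11, 3.31 and 1.82 TPM, and in Mixed Het 3.86, 6.38, 2.77, 2.54, 23.1 and 12.3 TPM. Replicates 3 and 4 of Mixed Het lay within the WT range, and replicates 5 and 6 were far above it. The rise on Mixed was 1.34 (SE 0.38, limma adjusted p = 0.00690), and the interaction of 1.27 (SE 0.54) did not pass (limma adjusted p = 0.140).

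Cck (ENSMUSG00000032532) was at most 0.26 TPM in every sample outside Mixed Het and was 0.07, 0.25, 0.24, 0.17, 2.41 and 0.77 TPM in the Mixed Het mice. Its rise was thus carried by the same replicates, 5 and 6, in which Gast was highest. In the fit without the filter the Mixed difference was 0.52 (SE 0.20) and did not pass (limma adjusted p = 0.0663), and the C57 difference was 0.05 (limma adjusted p = 0.973).

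The genes of secreted carrier proteins were raised in all 6 Mixed Het mice. Gc (ENSMUSG00000035540) was 111, 95.2, 91.5, 84.3 and 54.1 TPM in C57 WT and 193, 264, 204, 177, 220 and 194 TPM in C57 Het. The Mixed WT samples held 73.7, 80.8, 47.9, 72.4 and 75.3 TPM and the Mixed Het samples 327, 340, 282, 225, 335 and 381 TPM. The groups did not overlap on either background, and the lowest Mixed Het mouse was replicate 4. Gc rose by 1.27 (SE 0.16, limma adjusted p = 5.52e-06) on C57 and by 2.16 (SE 0.16, limma adjusted p = 2.44e-09) on Mixed, and the interaction of 0.88 (SE 0.23) passed (limma adjusted p = 0.0248). Without the filter on low values the interaction did not pass (limma adjusted p = 0.0589).

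Serpina7 (ENSMUSG00000031271), the thyroxine-binding globulin, was 3.17, 4.66, 7.07, 5.32 and 4.18 TPM in C57 WT and 8.56, 7.39, 8.73, 6.74, 7.52 and 6.41 TPM in C57 Het. C57 WT replicate 3 reached into the Het range. In Mixed islets it was 3.44, 3.79, 3.02, 2.74 and 2.79 TPM in WT and 15.6, 13.0, 13.0, 6.89, 16.2 and 16.8 TPM in Het, with no overlap and with replicate 4 well below the other Het mice. Serpina7 rose by 0.57 (SE 0.17, limma adjusted p = 0.0139) on C57 and by 1.77 (SE 0.17, limma adjusted p = 9.43e-08) on Mixed. The interaction was 1.20 (SE 0.25, limma adjusted p = 0.00722). The C57 call was lost with sample weights (0.32, limma adjusted p = 0.108) and without C57 WT replicate 1 (0.45, limma adjusted p = 0.0521).

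**Figure D2:**
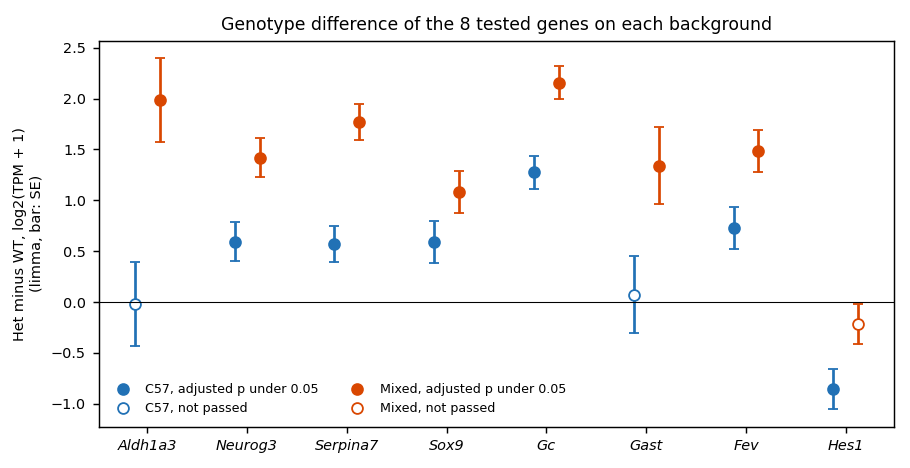
Het minus WT difference in log2(TPM + 1) of the 8 tested genes on the C57 (blue) and Mixed (orange) backgrounds; points are limma estimates, bars are SE, and filled points passed an adjusted p of 0.05. The Mixed estimate lies above the C57 estimate for all 8 genes, and for Aldh1a3, Serpina7 and Gc that difference passed the interaction test. Aldh1a3 passed the filter mainly through Mixed Het samples.

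Taken as a test of the difference between backgrounds, 3 of the 8 genes had a positive interaction that passed, Aldh1a3, Serpina7 and Gc, beside 7.36% of all genes called, 4.62% positive and 2.74% negative. Sox9, Neurog3, Gast, Fev and Hes1 did not pass. The median interaction over the 8 genes was 0.85, beside 0.02 over all genes tested. Aldh1a3 is in this count and median. It passed the filter mainly through Mixed Het samples, whose high values also make its interaction positive, so its part in both was tied to the filter.

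The backgrounds themselves were then compared within each genotype. In WT islets only Fev was called, lower in Mixed by 0.66 (SE 0.21, limma adjusted p = 0.0480), while 11.3% of all genes were called, 4.99% lower and 6.30% higher. The groups overlapped for all 8, where 2.91% of all genes lay wholly above and 3.21% wholly below. The Fev call was lost under 4 of the other settings and in 16 of the 22 fits without 1 sample. Neurog3 differed by -0.54 (limma adjusted p = 0.0863), Serpina7 by -0.47 (0.0986) and Sox9 by 0.42 (0.210). The Neurog3 difference passed with quantile normalization (limma adjusted p = 0.0458) and without C57 WT replicate 4 (0.0165), and that of Serpina7 passed with sample weights (0.0345), without C57 WT replicate 1 (0.0499) and without Mixed Het replicate 4 (0.0290). In Het islets 5 of the 8 were called higher in Mixed, against 20.5% of all genes called, 13.3% higher and 7.13% lower: Aldh1a3 by 2.26 (SE 0.39, limma adjusted p = 0.000369), Gast by 1.29 (0.0146), Sox9 by 0.91 (0.00221), Serpina7 by 0.73 (0.00380) and Gc by 0.59 (0.0100). Of the 8, Sox9 alone had Mixed Het wholly above C57 Het, as 6.56% of all genes did, with 3.28% wholly below. Neurog3 (0.28, limma adjusted p = 0.304) and Fev (0.09, limma adjusted p = 0.790) were at levels in the 2 Het groups that were not shown to differ. Hes1 differed by 0.49 (limma adjusted p = 0.0702), which passed in a fit of the Het samples alone (0.0153), with sample weights (0.00489), with group weights (0.0231) and without C57 WT replicate 5 (0.0187). These comparisons share their Het samples with the genotype comparisons above. The 5 genes called in Het islets include Aldh1a3, whose passing of the filter was tied to Mixed Het.

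The Het mice were also described one by one. A C57 Het mouse had 3 to 6 of the 10 genes above every C57 WT mouse, and a Mixed Het mouse had 7 to 9 of the 10 above every Mixed WT mouse. These 10 include Cck and Mycl, which failed the filter, and Aldh1a3, whose passing was tied to Mixed Het. The shares that follow cover only genes that passed it. Over all 16756 genes tested, a C57 Het mouse lay above every C57 WT mouse in 21.4% to 40.9% of genes, and a Mixed Het mouse above every Mixed WT mouse in 30.0% to 52.0%, and the C57 counts overlapped that range. Mixed Het replicate 4 was the lowest of its group in 8 genes, Aldh1a3, Neurog3, Serpina7, Sox9, Gc, Gast, Fev and Hes1. It also had the highest Mafa level of the group, 199 TPM against 95.2 to 173 in the other 5, and the lowest summed alpha, acinar and ductal marker levels. Its summed beta marker level, 343462 TPM, was the highest of the group, and it was not the lowest in any other marker sum. Replicates 5 and 6 were highest in Aldh1a3, Gast and Cck, and replicates 1 and 2 were highest in Sox9, Mycl and Fev. The genes therefore did not all peak in the same mice.

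**Figure D3:**
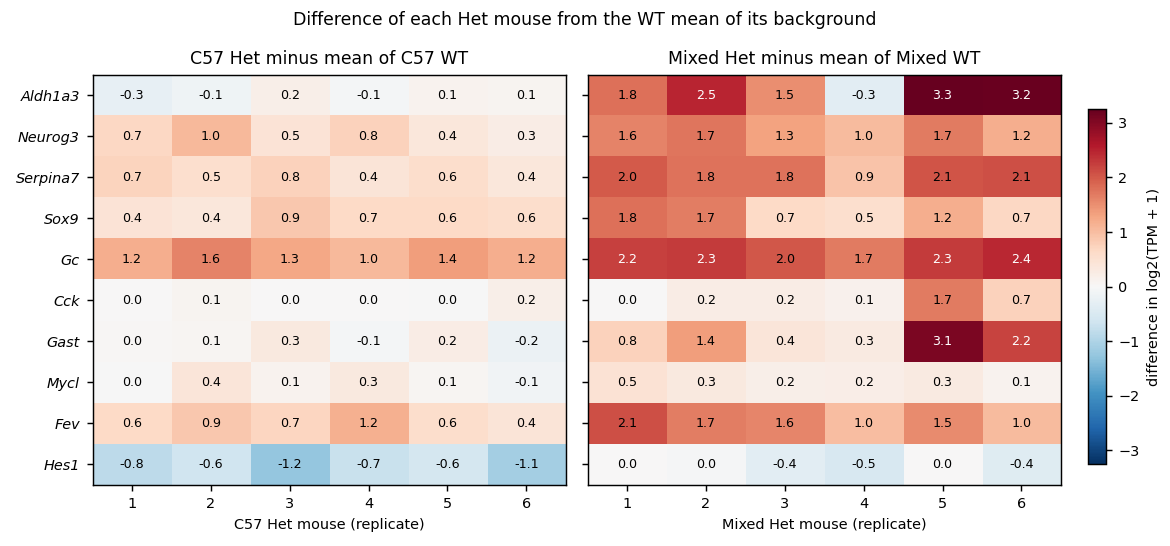
Difference in log2(TPM + 1) of each Het mouse from the WT mean of its background, for the 10 genes (rows) and 6 mice per background (columns); red is above and blue below the WT mean. In the Mixed panel replicate 4 is the palest column, while Aldh1a3 and Gast are darkest in replicates 5 and 6.

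Over the 6 Mixed Het mice, Aldh1a3 and Gast had the same order (Spearman's rho = 1.0, exact permutation p = 0.00278; Pearson's r = 0.844, exact permutation p = 0.0264, and r = 0.998 without the 2 mice farthest from the median of Aldh1a3). Among the 90 relations between pairs of these genes within the 2 Het groups, no p passed after adjustment (Aldh1a3 with Gast, adjusted p = 0.25 for rho, exact permutation test). Across all 22 samples, as deviations of log2(TPM + 1) from the group means, the genes most like Aldh1a3 were Anxa10 (r = 0.897), Slco1a5 (0.873), Vgf (0.837), Rhd (0.819) and Wdr72 (0.815), and Gast ranked 40 of all genes tested (0.691). For Neurog3 they were Irx1 (0.840), Dennd2a (0.804), Akap17b (0.800), Zbtb7c (0.800) and Gfod1 (0.792), with Fev at rank 8 (0.780). Irx1 is a transcription factor of alpha cells. Aldh1a3 and Neurog3 themselves were weakly alike (0.212). Aldh1a3 ran from 0.41 TPM in replicate 4 to 16.0 TPM within Mixed Het, and was at most 1.61 TPM in the other groups. Its likenesses therefore rest mostly on the Mixed Het mice, replicate 4 above all, and not evenly on the 22 samples. All these likeness values describe libraries that share a preparation and a scale.

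Markers of other cell types moved with genotype and are given beside the genes. The summed level of 8 alpha-cell markers, most of it Gcg (glucagon), ranged over 19189 to 57733 TPM in C57 WT, 71703 to 117704 in C57 Het, 16009 to 27772 in Mixed WT and 65664 to 107519 in Mixed Het. All 8 of the alpha markers were called higher in C57 Het and 7 of the 8 in Mixed Het. Gc per 1000 TPM of those markers, a ratio chosen after the values were seen, was 2.46 ± 0.653 (SD, n = 5) in C57 WT and 2.36 ± 0.548 (n = 6) in C57 Het, and 3.49 ± 0.693 (n = 5) and 3.5 ± 0.568 (n = 6) in Mixed WT and Mixed Het. Neurog3 per 1000 TPM of alpha markers was 0.176 ± 0.0640 (n = 5) in C57 WT and 0.109 ± 0.0227 (n = 6) in C57 Het, and 0.193 ± 0.0389 (n = 5) and 0.134 ± 0.0229 (n = 6) in Mixed WT and Mixed Het. The Het means of that ratio were thus below the WT means for Neurog3 and close to them for Gc, and no test was made of it. The ratio for Fev went the way of Neurog3, with 0.372 ± 0.118 and 0.244 ± 0.0331 on C57 and 0.384 ± 0.0498 and 0.265 ± 0.0617 on Mixed.

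Ductal markers summed to 638 to 752 TPM in C57 WT, 712 to 865 in C57 Het, 549 to 833 in Mixed WT and 812 to 1307 in Mixed Het. Of the 9 tested, 3 were called higher and 1 lower on C57, and 7 higher and 1 lower on Mixed. In Mixed WT, 53.4% of this sum was Krt18, 14.5% Epcam and 10.4% Krt7, and the Mixed Het mean was 0.919 times the WT mean for Krt18 and 1.19 times for Krt7. Duct markers at lower levels had Mixed ratios of Het to WT means near that of Sox9, which was 2.91: 2.46 for Krt19 (3.40 to 8.38 TPM), 4.69 for Spp1 and 4.09 for Cftr, which failed the filter. On C57 the ratios were 1.97 for Sox9, 1.63 for Krt19, 3.29 for Spp1 and 4.11 for Cftr. Mixed Het replicates 1 and 2, highest in Sox9, also had the highest ductal sums, 1272 and 1307 TPM. The part of duct cells in the Sox9 difference was not tested. Delta markers were called higher in 4 of 4 on both backgrounds. Acinar markers were called higher in 8 of 8 on C57 and 1 of 8 on Mixed. On Mixed, 5 of 6 immune markers were called higher and 1 lower, and 4 of 7 mesenchymal markers were called higher. Summed beta-cell markers were 371122 to 450382 TPM in C57 WT, 325059 to 380435 in C57 Het, 402578 to 480009 in Mixed WT and 251635 to 343462 in Mixed Het, with 1 of 8 called higher and 1 lower on C57 and 5 lower on Mixed, and their part in the results for these genes was not tested. Of the listed gut endocrine and gut peptide markers, Gip (at or below 0.29 TPM, with 0 in all Mixed WT samples), Nts (at or below 0.38 TPM) and Sct failed the filter. Sct averaged 0.317 and 0.886 TPM in C57 WT and Het and 0.201 and 1.04 TPM in Mixed WT and Het. Vip averaged 37.6 and 43.4 TPM in C57 WT and Het, with no call (limma adjusted p = 0.895), and it rose from 8.99 to 41.5 TPM on Mixed (log2 difference 2.29, limma adjusted p = 0.0151), with a highest value of 119.7 TPM. Chga, the other tested gene of that list, was not called on either background, with ratios of Het to WT means of 1.20 on C57 and 1.11 on Mixed. The part of these markers in the Gast and Cck values was not tested.

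**Figure D4:**
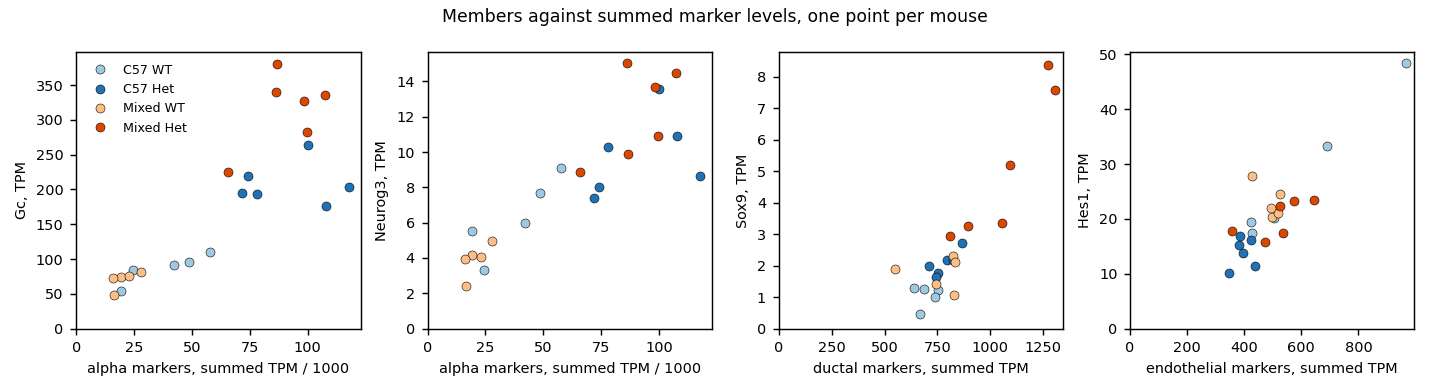
TPM of 4 genes against the summed TPM of a marker list, each point 1 mouse: Gc and Neurog3 against alpha markers (divided by 1000), Sox9 against ductal markers and Hes1 against endothelial markers. Het mice lie at higher alpha marker sums than all WT mice, and C57 WT replicates 1 and 5 are the 2 rightmost points of the Hes1 panel.

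The other genes of the same pathways were counted from lists. Of 19 tested factors of endocrine differentiation, which act with or after NEUROG3, 2 were higher and 9 lower on C57, and 2 higher and 8 lower on Mixed, with medians of -0.20 and -0.22 against the 0.08 and 0.10 of all genes. The lower calls made up 47.4% and 42.1% of the list, beside 11.6% and 13.5% of all genes. Neurog3 and Fev thus rose beside more of these factors falling than rising. Mfng, a glycosyltransferase that modifies Notch receptors, fell by 0.92 on C57 (limma adjusted p = 0.00011) and by 1.03 on Mixed (1.43e-05), and Mnx1, a beta-cell homeobox factor, fell by 1.17 on Mixed (7.96e-06). Sox4 fell by 0.80 on C57 (limma adjusted p = 0.0105), with an interaction of 1.34 (0.0214). Pax4 was at or below 0.122 TPM in every sample.

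Of 20 tested Notch pathway genes other than Hes1, 2 were higher (10%) and 5 lower (25%) on C57, and 4 higher (20.0%) and 5 lower (25%) on Mixed, beside 26.4% and 11.6%, and 30.7% and 13.5%, of all genes tested. The interaction test called 0 of the 20, beside 7.36% of all genes. The ligand Dll4, which endothelial cells express, fell by 0.97 on C57 (limma adjusted p = 1.89e-05) and by 0.79 on Mixed (8.54e-05). The receptor Notch2 rose by 0.49 (limma adjusted p = 0.0102) and 0.75 (0.000245), and the ligand Jag1 rose by 0.53 on Mixed (0.00554). Hes6, which antagonises HES1, fell by 0.56 on C57 (limma adjusted p = 4.16e-06).

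Among 9 tested pancreatic progenitor factors, 4 were higher and 0 lower on C57, and 5 higher and 2 lower on Mixed (44.4% and 55.6% higher, beside 26.4% and 30.7% of all genes), with medians of 0.36 and 0.62. Prox1 rose by 1.13 (limma adjusted p = 1.43e-05) and 0.76 (0.000503), Hhex, which is also a delta-cell factor, by 0.91 (0.00105) and 1.40 (6.58e-06), and Gata6 by 0.89 (0.000138) and 0.97 (2.68e-05). Of 11 tested pluripotency and MYC network genes, 3 were higher (27.3%) and 0 lower on C57 and 2 higher (18.2%) and 2 lower on Mixed, beside 26.4% and 30.7% of all genes higher, with Max, the partner of MYC proteins, rising by 0.33 (limma adjusted p = 0.00232) and 0.21 (0.0318). On Mixed, Mnt fell by 0.55 (limma adjusted p = 0.00972) and Lin28a by 0.53 (0.00142). Pou5f1 was listed at 0 in all samples, and Nanog and Sox2 failed the filter.

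In the retinoic acid list, 11 of 22 genes were tested, with 3 higher (27.3%) and 1 lower (9.09%) on C57 and 4 higher (36.4%) and 1 lower (9.09%) on Mixed. These shares lie near the 26.4% and 11.6%, and 30.7% and 13.5%, of all genes, and nothing is read from the list's count. Rbp4, the retinol carrier and a delta-cell gene, rose by 0.88 (limma adjusted p = 0.00107) and 1.88 (1.1e-07), with an interaction of 1.0 (0.0268). Rdh10, which makes the retinaldehyde that ALDH1A enzymes use, rose by 0.93 on C57 (limma adjusted p = 1.07e-05). Its interaction was -0.64 (limma adjusted p = 0.0314), so its difference on Mixed was smaller, though of the same sign. The receptor Rara fell by 0.93 (limma adjusted p = 0.000108) and 0.45 (0.0227), and its partner Rxra rose by 0.65 (0.000229) and 0.79 (1.31e-05). The related enzymes Aldh1a1 and Aldh1a2 failed the filter, and the mean of Aldh1a1 was 0.371 TPM in Mixed WT against 1.37 in Mixed Het.

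The enzymes that turn progastrin and procholecystokinin into active peptides were called higher in 5 of 7 on both backgrounds (71.4%, beside 26.4% and 30.7% of all genes), with 0 lower. Pcsk1, a prohormone convertase, rose by 1.33 (limma adjusted p = 4.37e-07) and 1.05 (4.09e-06), and Pam, which amidates peptide ends, rose by 0.94 (3.86e-06) and 1.27 (3.51e-08). Tpst1, a tyrosylprotein sulfotransferase, rose by 0.98 on Mixed (limma adjusted p = 3.96e-08), with an interaction of 0.48 (0.028). The receptor genes Cckar and Cckbr failed the filter, with group means of at most 0.263 TPM. Among 9 tested genes of vitamin D and thyroid hormone transport, 3 were higher on C57 (33.3%) and 4 on Mixed (44.4%), beside 26.4% and 30.7% of all genes, and 0 were lower. Ttr, the thyroid hormone carrier that is abundant in alpha cells, rose by 1.11 (limma adjusted p = 0.000131) and 2.03 (3.47e-08), with an interaction of 0.93 (0.037), and Vdr, the vitamin D receptor, rose by 0.84 on C57 (0.000448). Of 8 tested genes of the serotonin programme that FEV governs in neurons, 3 were higher (37.5%) and 2 lower on C57, and 2 higher (25%) and 1 lower on Mixed, beside 26.4% and 30.7% of all genes higher. Tph1, the enzyme that starts serotonin synthesis, rose by 1.26 (limma adjusted p = 0.0123) and 1.27 (0.00975), and Lmx1b fell by 0.50 (0.00221) and 0.78 (1.88e-05). Maob rose by 0.60 on C57 (limma adjusted p = 0.000274), with an interaction of -0.62 (0.0203).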

How the data were processed

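Polyadenylated RNA of isolated islets was sequenced, per the labels' protocols. The authors deposited 1 table of TPM for 57010 genes and 22 samples, per the file headers, and each column summed to 1000000. STAR 2.7.10b, MultiQC 1.7 and mm39 are named in the submitters' processing notes; the quantifier and annotation are not given in the sources used here. TPM keeps no depth, so depth per sample is unknown and no count model or detection floor was used. Samples were grouped by the genotype labels, with replicate numbers in accession order, so numbers pair no samples. Where a symbol repeated (147 symbols), the row with the highest mean was kept, and 0 value columns were left unused.

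Values were analysed as log2(TPM + 1) for the 16756 genes that reached 1 TPM in 5 or more samples. limma 3.58.1 in R 4.3.3 (lmFit, contrasts.fit, eBayes with trend) fitted 4 group means over 22 samples. In total 5 contrasts were tested, two-sided, with Benjamini-Hochberg adjustment over all genes. Each gene had 1 spread shared by the 4 groups, so a group of wide spread, as Mixed Het for Aldh1a3 and Gast, widens that gene's intervals in every contrast. The code was tested on simulated data. P-values measure the spread between mice. The members, lists and tests were chosen with earlier results of these data known. All 10 members are named; from each other list, counts were taken and up to 4 called genes with the largest change per contrast could be named, with a few uncalled genes named for their low levels after their values were seen. Alternatives were a pseudocount of 0.1, no filter, a filter on mean TPM (5 or more), scaling by median of ratios, quantile normalization, the contrast's samples alone, sample weights, group weights, and leaving out each sample. Ratios to summed markers were added after the values were seen. Promoters came from RefSeq (GRCm38.p6). Protein sequences were not used here. Some genes of the lists are not reported singly here.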

Additional observations from a re-analysis of the deposited data

Results flagged for a closer look

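In 4 of the 40 sets of values (10 genes in 4 groups) the lowest mouse stood apart from its group by Dixon's criterion, which chance meets in about 1 in 20 sets. Serpina7 was 6.89 TPM in Mixed Het replicate 4, Sox9 was 0.462 TPM in C57 WT replicate 4, Gc was 47.9 TPM in Mixed WT replicate 3 and Mycl was 0.241 TPM in C57 WT replicate 1. The genotype difference in log2(TPM + 1) was larger on the Mixed than on the C57 background, by limma's interaction test, for Aldh1a3 (2.0), Serpina7 (1.20) and Gc (0.88). Aldh1a3 passed the filter mainly through the Mixed Het samples in which it was high, so its interaction was tied to the filter. Its call was lost in most fits that left out 1 sample. Without the filter the calls of Aldh1a3 (limma adjusted p = 0.0956) and Gc (0.0589) were lost.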

How the results depend on the processing

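Of the 40 gene results (8 genes, 5 contrasts), 22 passed the threshold, and 0 of these changed direction under any setting. Leaving out 1 sample at a time gave 880 comparisons, of which 825 kept direction and side of the threshold, 36 lost a call, 7 gained one and 12 changed sign. Sign changes fell on differences near 0. Aldh1a3 on C57 became 0.022 with quantile normalization and 0.037 with sample weights, and ran from -0.060 to 0.034 without 1 sample. Gast on C57 became -0.0042 with median-of-ratios scaling and ran from -0.13 to 0.26 without 1 sample. Between the backgrounds, without 1 sample, Gast in WT ran from -0.19 to 0.20, Fev in Het from -0.029 to 0.19 and Hes1 in WT from -0.28 to 0.073 (0.14 with sample weights).

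The number of these genes called on Mixed was 4 with a mean TPM of at least 5, where fewer genes were tested; the Mixed against C57 Het count was then 2. The interaction count was 1 without the filter. The Mixed against C57 WT count, 1, was 0 without the filter, 2 with quantile normalization, 0 on the contrast's samples alone, 0 with group weights, and 0 to 2 without 1 sample. Over all genes, the interaction count of 1233 was 714 without the filter, 2628 with sample weights and 771 to 1775 without 1 sample, the lowest without Mixed Het replicate 5. The WT background count of 1892 was 1251 with a mean TPM of at least 5, 831 on the contrast's samples alone and 1093 with group weights. The Het background count of 3428 was 2223 with a mean TPM of at least 5 and 6572 with sample weights. The cause of these shifts was not tested. Median-of-ratios scaling moved the higher and lower calls to 3293 and 3300 on C57 and 3663 and 3750 on Mixed, from 4422 and 1940, and 5137 and 2258. The median log2 difference over all genes moved from 0.10 to -0.01 on Mixed under that scaling. Quantile normalization gave 3680 and 2875, and 4221 and 3338. TPM gives no depth, so precision at low levels is unknown. No paired analysis was possible because the replicate numbers only name samples.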
